A study of Rattus norvegicus with 8 samples.

Results

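Nuclear receptors are transcription factors, most of which bind a small lipophilic molecule such as a bile acid, an oxysterol, a fatty acid, a retinoid or a hormone. They bind DNA as monomers, as homodimers or as heterodimers with a retinoid X receptor, and recruit coactivators or corepressors that modify chromatin. In liver they govern the handling of drugs, bile acids, lipids and glucose. A list of 40 genes, 33 receptors and 7 coregulators, was taken from this class by gene symbol, with the brightest probe set standing for a gene, and 36 of the 40 were measured among 14511 named genes. These were 30 receptors and 6 coregulators. Nr6a1, Rarb, Rora and Nrip1 were not analysed here.

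The material was perfused liver of male Wistar rats, 6 to 10 weeks old, kept under normal husbandry. A bicarbonate-based salt solution, Krebs-Henseleit buffer, ran through the organ outside the body for up to 180 min and was normoosmotic (305 mosm/L) for 4 samples and hypoosmotic (225 mosm/L), a condition that swells liver cells, for the other 4. All samples belong to the 180 min time point, RNA of whole homogenised liver was hybridised to 8 Affymetrix whole-transcript arrays, and the deposited values are log2 intensities. Whether each sample is another rat is not stated in the labels. The p-values therefore reflect scatter among these samples alone, part of which can be technical. The question put to the arrays is which genes of this class differ in transcript level between livers perfused with the 2 buffers.

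The 4 arrays of a group limit the precision, and array medians lay between 3.92 and 4.05. Hypoosmotic replicate 3 stood apart from the others, at 28.5 on the second principal component (18.9% of the variance) against -15.3 to 6.60 for the other 7 arrays, and among its group it was highest in 19 of the 36 genes. Among the 36 genes, leaving out this array ended the calls of Nr1i2, Nr3c2 and Rxrg. The value without it is given for some genes only. The measured hepatocyte markers, 11 of the 12 listed, had a mean log2 level of 11.42 to 11.69 per normoosmotic array and 11.48 to 11.66 per hypoosmotic array, and 0 of them passed the test. Of 9 endothelial markers 2 rose (22.2%, against 2.45% of all genes). These were Kdr, by 0.66 ± 0.15 (SE), and Erg, by 0.54 ± 0.14, on the log2 scale (limma adjusted p = 0.0280 and 0.0490). The mean of the list was 6.43 to 6.73 per normoosmotic array and 6.69 to 7.12 per hypoosmotic array. Of the 8 fits without 1 array, Kdr passed in 2 and Erg in 1, and neither passed without hypoosmotic replicate 3, where the median change of the list was 0.19 against 0.33 with all arrays. Of 11 macrophage, 12 stellate cell, 6 bile duct and 10 lymphocyte and neutrophil markers 0 passed, and 8 of the last 10 were near background (a log2 value under 3.07, below which 95% of the odorant receptor genes lay). In whole liver, fewer cells of a type and less RNA per cell cannot be told apart.

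Of the 36 genes 7 changed, 19.4%, while 7.07% of all genes did (limma, Benjamini-Hochberg adjusted p under 0.05 over all genes). The rises were those of the receptors Nr5a2, Nr1i2, Rxrg and Thra and of the coactivator Ppargc1a, so 5 rose where 2.45% of all genes did. The falls were those of the receptors Pparg and Nr3c2, where 4.62% of all genes fell. Without hypoosmotic replicate 3 the changed genes of the class were 4 (11.1%), Nr5a2, Thra, Ppargc1a and Pparg, while 6.31% of all genes changed in that fit. In the controls 3924 of all 14511 genes were near background, against 2 of the 36. Without the dimmest 30% of genes 9 of 35 genes of the class changed (25.7%), against 11.2% of the 10158 genes kept. The share of the class has no test here. Of the 1026 genes that changed among all 14511, 65.3% were lower, and 75.7% after each array was centred on its median, where Rxrb and Thrb joined the falls. The median change was 0.17 over the 30 receptors and 0.04 over the 6 coregulators, against 0.015 over all genes, on the log2 scale as hypoosmotic minus normoosmotic mean. Without hypoosmotic replicate 3 these medians were 0.06 and -0.02. In 16 of the 36 genes (44.4%) the groups did not overlap, against 13.5% of all genes. In 8 of these the hypoosmotic arrays were all above the controls (5.33% of all genes), and in the other 8 all below (8.21% of all genes). Without hypoosmotic replicate 3, an alternative chosen after seeing the data, the groups did not overlap in 17 of the 36 genes, against 18.2% of all genes. These shares of all genes include the genes near background, and the share among brighter genes alone was not computed. For 25 of the 29 genes that did not pass, the 95% interval of the change excluded a 2-fold difference in either direction. The exceptions were Ppara, Esr1, Nr1h4 and Nr0b2, whose intervals reached above 1.

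**Figure D1:**
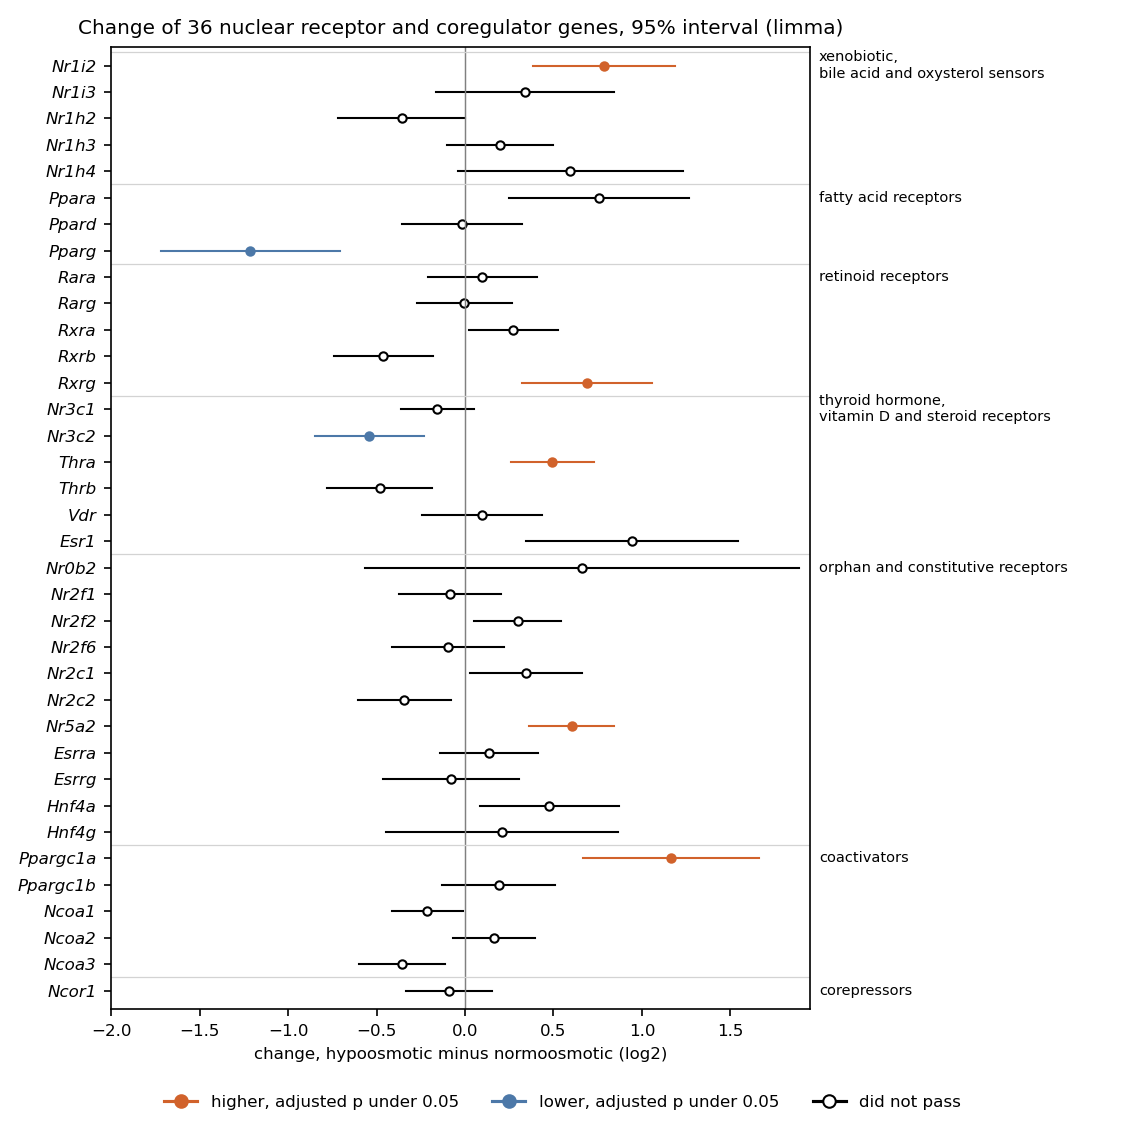
Log2 change (hypoosmotic minus normoosmotic, horizontal axis) of each of the 36 genes, grouped by role, with its 95% limma interval. Filled points mark the 5 genes that rose and the 2 that fell, and open points those that did not pass.

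The coactivator Ppargc1a (PGC-1 alpha), which partners several nuclear receptors and is induced in fasting liver by glucagon through cyclic AMP, had the largest rise of the class. Its log2 values were 5.04, 5.30, 4.87 and 4.37 in normoosmotic replicates 1 to 4 and 5.47, 6.21, 6.41 and 6.15 in hypoosmotic replicates 1 to 4. Every hypoosmotic value was above every normoosmotic one, with hypoosmotic replicate 1 closest to the controls. The group means were 4.89 ± 0.39 and 6.06 ± 0.41 (SD, n = 4 each), a 2.24-fold rise (limma adjusted p = 0.0132). The call held whichever of the 8 arrays was left out, and without hypoosmotic replicate 3 the change was 1.05 (adjusted p = 0.0280). Its close relative Ppargc1b, a coactivator of mitochondrial and lipid genes, changed by 0.19 with a 95% interval from -0.13 to 0.51 (adjusted p = 0.544).

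The promoters of Ppargc1a and Nr5a2, the receptor gene with the smallest p-value, are shown. Both genes rose in all 8 fits that left out 1 array, and each window held at least 1 of the motifs searched. Pparg also passed in all 8 fits, but its window held no match and is not shown. The letters are the 250 bases before the annotated start in RefSeq (GRCr8), at chr14:63634058-63634307 on the plus strand for Ppargc1a and chr13:50984939-50985188 on the minus strand for Nr5a2. Capitals mark AGGTCA (the hexamer that many nuclear receptors recognise), TGACG (the core of the cyclic AMP response element) and TGGAAA (the core of NFAT and NFAT5 sites), searched on both strands.
Ppargc1a: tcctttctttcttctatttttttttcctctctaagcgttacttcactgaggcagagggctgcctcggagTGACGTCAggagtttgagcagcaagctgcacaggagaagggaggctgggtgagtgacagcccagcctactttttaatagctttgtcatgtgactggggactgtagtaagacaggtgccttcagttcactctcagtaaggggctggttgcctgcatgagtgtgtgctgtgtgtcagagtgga
Nr5a2: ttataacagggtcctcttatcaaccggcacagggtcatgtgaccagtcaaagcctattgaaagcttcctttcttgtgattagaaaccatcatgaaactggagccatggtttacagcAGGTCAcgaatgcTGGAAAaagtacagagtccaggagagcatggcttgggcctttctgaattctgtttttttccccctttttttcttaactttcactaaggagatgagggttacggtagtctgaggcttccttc
In Ppargc1a the 2 matches of TGACG began 181 and 178 bases before the start on opposite strands and overlapped, together spelling the full palindromic element. The share of all windows that hold this full element was not computed. In Nr5a2 AGGTCA began 134 bases and TGGAAA 121 bases before the start. Windows were found for 29 of the 36 genes, including 6 of the 7 that changed. AGGTCA was in 2 of the 29 (6.9%, against 14.1% of all 33469 windows of this length), TGACG in 3 (10.3% against 18.2%) and TGGAAA in 4 (13.8% against 19.7%). G and C made up 42.4% to 82.8% of the bases in the 29 windows, against a median of 51.2% over all windows. The part of base content in these shares was not tested. The windows of Nr1i2, Rxrg, Thra and Pparg held none of the 3 motifs. A match describes letters only.

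Nr5a2 (LRH-1), an orphan receptor that binds DNA as a monomer and drives bile acid synthesis genes, had the smallest p-value of the 36 genes. Its values were 8.0, 8.01, 7.63 and 7.95 in normoosmotic replicates 1 to 4 and 8.54, 8.48, 8.53 and 8.45 in the hypoosmotic ones. The hypoosmotic arrays lay close together and all above the controls, among which replicate 3 was low. The level rose from 7.90 ± 0.18 to 8.5 ± 0.04 (SD, n = 4 each), or 1.52-fold (limma adjusted p = 0.0108), and passed in all 8 fits without 1 array.

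**Figure D2:**
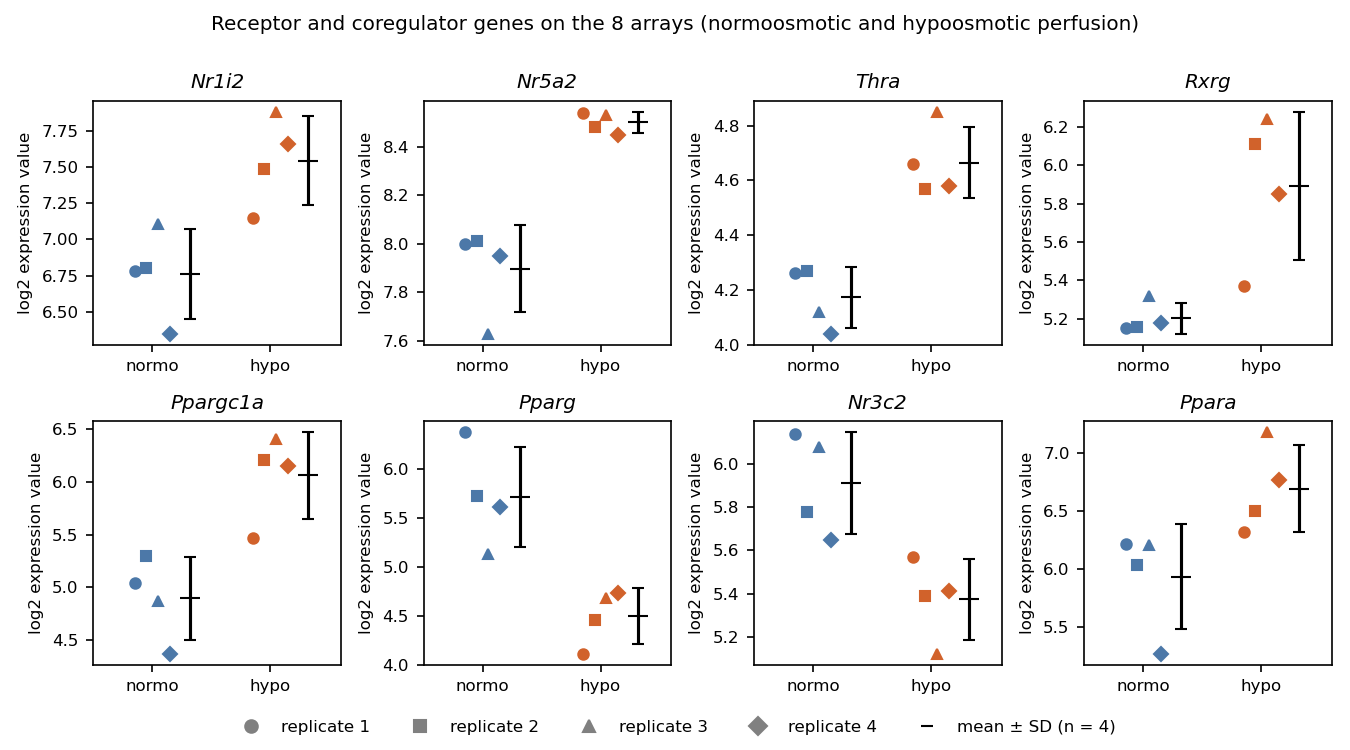
Log2 expression values (vertical axes, a separate scale for each gene) on the 4 normoosmotic and 4 hypoosmotic arrays, with symbols for the replicate number and bars for the mean ± SD. The groups do not overlap in any of the 8 genes; Ppara (adjusted p = 0.0780) is the one that did not pass.

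Among the 5 sensors of foreign compounds, bile acids and oxysterols, 1 rose and 0 fell. This was Nr1i2 (PXR), which senses drugs and bile acids and induces cytochrome P450 genes. It had values of 6.78, 6.80, 7.11 and 6.35 in normoosmotic and 7.15, 7.49, 7.88 and 7.66 in hypoosmotic replicates 1 to 4. The groups were separate by a small margin, between normoosmotic replicate 3 and hypoosmotic replicate 1. The rise was 1.72-fold, or 0.78 ± 0.18 (SE) on the log2 scale (limma adjusted p = 0.0278). It was not past the threshold without normoosmotic replicate 1, 2 or 4 or hypoosmotic replicate 2, 3 or 4 (adjusted p from 0.0546 to 0.0701). Without hypoosmotic replicate 3 the rise was 0.67 (adjusted p = 0.0546). Of the 17 measured target genes of Nr1i2 and its relative Nr1i3, 1 rose and 1 fell (11.8% changed, against 7.07% of all genes). Their median change was 0.04. Cyp3a62, a cytochrome P450 from a family of similar sequence, went from 3.51 ± 0.24 to 4.87 ± 0.65 (adjusted p = 0.0143), and Abcc2 (MRP2), the canalicular exporter of conjugates, from 10.80 ± 0.23 to 10.10 ± 0.12 (SD, n = 4 each, adjusted p = 0.0109). The main CYP3A genes of the list, Cyp3a23-3a1 and Cyp3a2, changed by 0.14 and 0.04 and did not pass.

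Nr1i3 (CAR), the other drug sensor, lay close to background. Its normoosmotic values were 2.92 to 3.29 and its hypoosmotic values 2.96, 3.65, 4.14 and 3.03, so that the groups overlapped. Its change was 0.34 with all arrays and 0.11 without hypoosmotic replicate 3 (limma adjusted p = 0.474 and 0.805). Nr1h4 (FXR), the bile acid receptor, was 6.76, 6.46, 6.71 and 6.68 in normoosmotic and 6.65, 7.31, 8.27 and 6.76 in hypoosmotic replicates 1 to 4. Hypoosmotic replicate 3 was far above the rest, and the change was 0.59 ± 0.29 (SE, limma adjusted p = 0.280) with it and 0.25 (adjusted p = 0.440) without it. The repressor Nr0b2 (SHP), which FXR induces and which lacks a DNA-binding domain, was 5.84 on that same array and between 2.78 and 3.42 on the other 7. Without that array its change was -0.07, with it 0.66 (adjusted p = 0.886 and 0.594). Of 13 FXR target genes, Nr0b2 among them, 0 rose and 1 fell (7.69% changed, against 7.07% of all genes). This was Fgfr4, the hepatocyte receptor for the bile acid signal FGF19 (FGF15 in rodents). It went from 6.22 ± 0.03 to 5.71 ± 0.12 (SD, n = 4 each, adjusted p = 0.0122). The list median was -0.01, and the list was not split into genes that FXR induces and genes that it represses.

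The oxysterol receptors Nr1h3 (LXR alpha) and Nr1h2 (LXR beta) did not pass. Nr1h3 was 7.64, 7.89, 7.69 and 7.41 in normoosmotic and 7.80, 8.06, 7.98 and 7.58 in hypoosmotic replicates 1 to 4, and Nr1h2 changed by -0.36 ± 0.16 (SE, limma adjusted p = 0.243). Both had overlapping groups. Of 13 LXR target genes, Nr1h3 among them, 0 passed and 0 had an unadjusted p under 0.05, against 20.7% of all genes. The smallest p was that of the fatty acid synthase gene Fasn, with a change of 0.40 (adjusted p = 0.318).

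Of the 3 fatty acid receptors, 0 rose and 1 fell (33.3% changed, against 7.07% of all genes). Pparg (PPAR gamma), the receptor that drives fat cell formation and that hepatic stellate cells and macrophages also express, had values of 6.37, 5.72, 5.13 and 5.61 in normoosmotic and 4.11, 4.46, 4.68 and 4.73 in hypoosmotic replicates 1 to 4. All hypoosmotic arrays were below all controls, which spread over more than a log2 unit. The level fell 2.32-fold, from 5.71 ± 0.51 to 4.50 ± 0.28 (SD, n = 4 each, limma adjusted p = 0.0122), the largest change of the class, and it passed in all 8 fits without 1 array. The macrophage markers had a median change of 0.04 and array means of 6.07 to 6.56 in normoosmotic and 6.10 to 6.92 in hypoosmotic livers. The stellate cell markers had a median change of 0.21 and array means of 6.03 to 6.16 and 5.91 to 6.53. Of these 23 markers 0 were near background, and their part in the fall was not tested.

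Ppara (PPAR alpha), which governs fatty acid oxidation in hepatocytes, was 6.22, 6.04, 6.21 and 5.27 in normoosmotic and 6.32, 6.50, 7.18 and 6.77 in hypoosmotic replicates 1 to 4. Its groups did not overlap, but the gap between them was narrow and normoosmotic replicate 4 was low. The change of 0.76 ± 0.23 (SE, 95% interval 0.25 to 1.27) did not pass (limma adjusted p = 0.0780), nor did it in any fit without 1 array. Of 21 PPAR alpha target genes 1 rose and 0 fell (4.76% changed, against 7.07% of all genes). The rise was that of the carnitine palmitoyltransferase gene Cpt2 (change 1.00, limma adjusted p = 0.0122). A change above 0 was found for 16 of the 21, against 7787 of all 14511 genes, and the median of the 21 was 0.20. Ppard (PPAR delta), a broadly expressed relative, changed by -0.02 with an interval from -0.35 to 0.32.

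**Figure D3:**
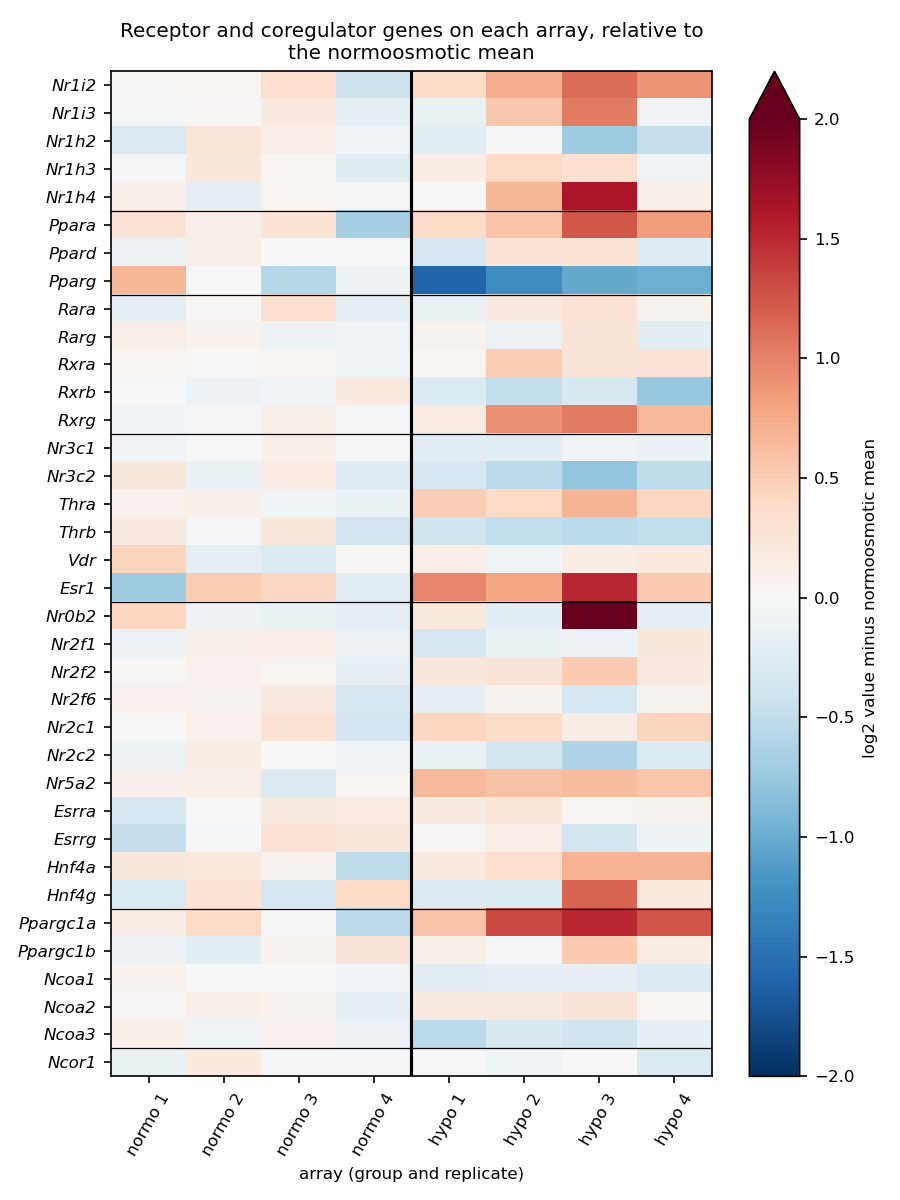
Each of the 36 genes (rows, by role) on each of the 8 arrays (columns), coloured by its log2 value minus the normoosmotic mean of that gene. The colour scale ends at 2, which Nr0b2 exceeds on hypoosmotic replicate 3, the array with the most extreme values of its group.

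Of the 5 measured retinoid receptors 1 rose and 0 fell. Rxrg (RXR gamma), a form best known from muscle and brain, had values of 5.15, 5.16, 5.32 and 5.18 in normoosmotic and 5.37, 6.11, 6.24 and 5.85 in hypoosmotic replicates 1 to 4. Hypoosmotic replicate 1 was next to the controls and the other 3 lay above them. The rise was 1.61-fold (0.69 ± 0.17 SE, limma adjusted p = 0.0331). It passed in 1 of the 8 fits without 1 array, the one without hypoosmotic replicate 1 (0.0114), and in the other 7 the adjusted p was 0.0529 to 0.0910. Array weights gave 0.0521. Rxrb (RXR beta), which is found in most tissues, was 4.97, 4.86, 4.91 and 5.17 against 4.70, 4.49, 4.65 and 4.22. All 4 hypoosmotic values were lower, with a change of -0.46 ± 0.13 (adjusted p = 0.0528), and it passed after median centring (0.0338), a further quantile normalization (0.0385) or without the dimmest genes (0.0443).

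Rxra (RXR alpha), the main heterodimer partner in hepatocytes, changed by 0.27 ± 0.11 (SE, limma adjusted p = 0.200) with groups that overlapped. The retinoic acid receptor genes Rara and Rarg changed by 0.10 and -0.01, with 95% intervals from -0.21 to 0.41 and from -0.27 to 0.26. Of 10 retinoic acid target genes, Rarg among them, 0 passed and 3 were near background in the controls. An unadjusted p under 0.05 was found for 2 of the 10, against 20.7% of all genes. The smallest p among them was that of Dhrs9, a retinol dehydrogenase, whose controls were near background and whose change was 0.51 (adjusted p = 0.141).

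Among 6 receptors of thyroid hormone, vitamin D and steroids, 1 rose and 1 fell (33.3% changed, against 7.07% of all genes). Thra (thyroid hormone receptor alpha), the form that predominates in heart and bone, had values of 4.26, 4.27, 4.12 and 4.04 in normoosmotic and 4.66, 4.57, 4.85 and 4.58 in hypoosmotic replicates 1 to 4. The groups were separate and the spread within each was small. The rise was 1.41-fold (0.49 ± 0.11 SE, limma adjusted p = 0.0207), and it did not pass without normoosmotic replicate 3 (0.0653) or 4 (0.0620). Thrb (thyroid hormone receptor beta), the main form of liver, was 7.06, 6.85, 7.10 and 6.50 in normoosmotic and 6.48, 6.38, 6.34 and 6.38 in hypoosmotic livers. All hypoosmotic values were below the controls, of which replicate 4 was almost level with them. Its change of -0.48 ± 0.13 missed the threshold (adjusted p = 0.0553) and passed without normoosmotic replicate 4 (0.0227), after median centring (0.0479) and without the dimmest genes (0.0463). Of 9 thyroid hormone target genes 0 passed and 0 had an unadjusted p under 0.05, against 20.7% of all genes. The deiodinase gene Dio1 had the smallest p of the 9 (change 0.32, adjusted p = 0.338).

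Nr3c2, the mineralocorticoid receptor that binds aldosterone and corticosteroids, was 6.14, 5.78, 6.08 and 5.65 in normoosmotic and 5.57, 5.39, 5.12 and 5.41 in hypoosmotic replicates 1 to 4. The hypoosmotic arrays were all lower, by a narrow margin at hypoosmotic replicate 1. The fall was 1.45-fold (-0.54 ± 0.14 SE, limma adjusted p = 0.0419). It passed in the fits without normoosmotic replicate 4 or hypoosmotic replicate 1 but not in the other 6 (0.0638 to 0.124, highest without normoosmotic replicate 3), nor when all probe sets were tested together (0.0584). Nr3c1, the glucocorticoid receptor, had tight groups, 8.86 ± 0.08 and 8.71 ± 0.07 (SD, n = 4 each), and its change of -0.16 had an interval from -0.36 to 0.05 (adjusted p = 0.398). Of 18 glucocorticoid target genes 0 rose and 1 fell (5.56% changed, against 7.07% of all genes). This was Igfbp1, an insulin-repressed binding protein, which fell by 0.48 ± 0.10 (SE, limma adjusted p = 0.0145). Igfbp1 did not pass without normoosmotic replicate 3 (0.0530).

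Esr1 (estrogen receptor alpha) was 3.83, 5.04, 4.95 and 4.33 in normoosmotic and 5.51, 5.32, 6.04 and 5.06 in hypoosmotic livers. The groups were separate by a very small gap between normoosmotic replicate 2 and hypoosmotic replicate 4. Its change was 0.94 ± 0.27 (SE, limma adjusted p = 0.0632), and it passed without hypoosmotic replicate 4 (0.0487). Esr1 was the one gene of the class with another probe set, where the change was 0.49 in the same direction. On that probe set the groups overlapped, and hypoosmotic replicate 3 was at 5.55 against 4.72 to 4.82 on the other hypoosmotic arrays. Vdr, the vitamin D receptor, which hepatocytes are known to express little of, was near background on all 8 arrays, at 2.15 to 2.87.

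Among the 11 measured orphan and constitutively active receptors 1 rose, Nr5a2, and 0 fell (9.09% changed, against 7.07% of all genes). Hnf4a (HNF4 alpha), which maintains hepatocyte identity, was 8.66, 8.64, 8.49 and 7.92 in normoosmotic and 8.63, 8.77, 9.12 and 9.10 in hypoosmotic replicates 1 to 4. The groups overlapped at hypoosmotic replicate 1, and the change of 0.48 ± 0.18 (SE) did not pass (limma adjusted p = 0.146). Of 17 HNF4 alpha target genes 0 passed while 2 had an unadjusted p under 0.05, against 20.7% of all genes. The smallest p of the 17 was that of the clotting factor gene F7 (change 0.30, adjusted p = 0.177). Nr2f2 (COUP-TFII), a repressor prominent in venous endothelium, was 6.19, 6.24, 6.21 and 6.00 against 6.39, 6.41, 6.69 and 6.34. Its groups were separate, with a change of 0.30 ± 0.11 (adjusted p = 0.147), beside the rise of Kdr and Erg and a median change of 0.33 over the 9 endothelial markers (0.19 without hypoosmotic replicate 3), whose part in it was not tested.

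The testicular receptors Nr2c1 and Nr2c2 (TR2 and TR4), repressors and activators of overlapping targets, changed by 0.35 ± 0.14 and -0.34 ± 0.12 (SE, limma adjusted p = 0.191 and 0.118). All 4 hypoosmotic values of Nr2c2 were below the controls, whereas those of Nr2c1 overlapped them. Nr2f1, Nr2f6, Esrra (ERR alpha, a partner of PGC-1 alpha on mitochondrial genes), Esrrg and Hnf4g had changes between -0.10 and 0.21, with adjusted p-values of 0.640 to 0.870. Of 26 measured genes of the respiratory chain, citrate cycle and related targets of ERR alpha and PGC-1 alpha, 0 passed. An unadjusted p under 0.05 was found for 4 of the 26, against 20.7% of all genes. The median change of the 26 was 0.09. The smallest p was that of Mdh2, mitochondrial malate dehydrogenase, which went from 9.04 ± 0.06 to 9.40 ± 0.14 (SD, n = 4 each, adjusted p = 0.0545).

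Related genes were then compared within each array, in 21 pairs of close relatives, since an offset of a whole array cancels in such a difference. The difference sets 2 probe sets side by side and is no ratio of transcript levels, so its shift between the groups is what was read. This comparison and its pairs were chosen after the values were seen, and other pairings, such as Nr1h4 with Nr1h2 or Nr1h3, were not run. In 10 of the 21 pairs the 4 differences of one group lay wholly above those of the other, each with an exact two-sided permutation p of 0.0286, the smallest that 4 against 4 samples allow. Adjusted over the 21 pairs this was 0.0600, so 0 pairs passed. Pparg, Ncoa2, Rxra, Rxrb and Rxrg each occur in more than 1 of the 10 pairs, so the 10 are not independent of each other. The share of other gene pairs with separate differences was not computed. Thra minus Thrb was -2.80, -2.58, -2.98 and -2.46 in normoosmotic and -1.82, -1.81, -1.49 and -1.80 in hypoosmotic replicates 1 to 4, a shift of 0.97 ± 0.14 (SE, n = 4 each). This shift was 0.88 to 1.06 when 1 array was left out. Ppara minus Pparg shifted by 1.97 ± 0.33 (1.78 to 2.25), Rxrb minus Rxrg by -1.15 ± 0.25 (-1.39 to -1.07) and Nr2c1 minus Nr2c2 by 0.69 ± 0.13 (0.58 to 0.78).

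The other pairs with separate differences were Ppard minus Pparg, Rxra minus Rxrb, Rxra minus Rxrg, Nr1h2 minus Nr1h3, Ncoa1 minus Ncoa2 and Ncoa2 minus Ncoa3, with shifts between -0.56 and 1.2. Ppargc1a minus Ppargc1b shifted by 0.97 ± 0.35 (SE, n = 4 each) with overlapping differences (exact permutation p = 0.0571, adjusted 0.0857).

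**Figure D4:**
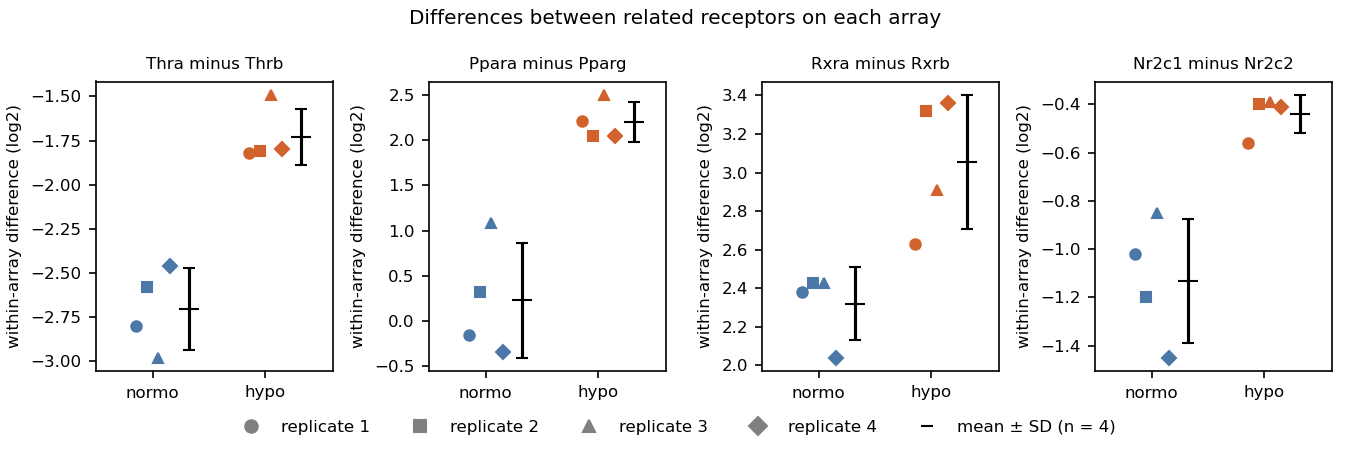
Log2 value of one receptor gene minus that of its relative on the same array (vertical axes, a separate scale for each pair), for 4 normoosmotic and 4 hypoosmotic arrays, with symbols for the replicate number and bars for the mean ± SD. The pairs are Thra minus Thrb, Ppara minus Pparg, Rxra minus Rxrb and Nr2c1 minus Nr2c2, and in each of these the hypoosmotic differences lie above all normoosmotic ones.

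Among the coactivators, Ncoa1, Ncoa2 and Ncoa3 are the p160 proteins that receptors bind first and that bring in acetyltransferases. Ncoa3 (SRC-3) was 5.02, 4.86, 5.01 and 4.81 in normoosmotic and 4.38, 4.60, 4.53 and 4.76 in hypoosmotic replicates 1 to 4. Its groups were separate, and the change of -0.36 ± 0.11 (SE) did not pass (limma adjusted p = 0.0809) except without hypoosmotic replicate 4 (0.0489). Ncoa1 (SRC-1) had very tight groups, 6.27 ± 0.05 and 6.05 ± 0.06 (SD, n = 4 each), that did not overlap, and a change of -0.21 (adjusted p = 0.205). Ncoa2 (SRC-2) changed by 0.17 with an interval from -0.07 to 0.40. The corepressor Ncor1, which carries histone deacetylase 3 to receptors without ligand, changed by -0.09 with an interval from -0.34 to 0.15.

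A wider list of 28 measured coregulator genes, outside the 36, was read beside these. Of the 28, 6 fell and 0 rose (21.4% lower, against 4.62% of all genes), with a median change of -0.16. The 4.62% includes many genes near background, 3924 of all 14511 in the controls, against 1 of the 28. Without the dimmest genes 744 of the 10158 genes kept were lower, and the 28 were not counted in that fit. This list of 28 was chosen with earlier results of these data known, and its share has no test here. The largest fall was that of Prmt1, an arginine methyltransferase that coactivates receptors, with values of 6.49, 6.72, 6.77 and 6.32 in normoosmotic and 5.65, 5.57, 5.63 and 5.59 in hypoosmotic replicates 1 to 4. The hypoosmotic arrays were nearly level with each other and well below the controls (-0.96 ± 0.12 SE, limma adjusted p = 0.00313). Pprc1, the PGC-1-related coactivator from the same family as Ppargc1a, was 6.77, 6.82, 7.03 and 6.97 against 6.31, 6.18, 5.42 and 6.15. It fell by 0.88 ± 0.18 (adjusted p = 0.0153) where Ppargc1a rose.

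The acetyltransferase genes Crebbp (CBP) and Kat2a (GCN5) each fell by 0.54 on the log2 scale (limma adjusted p = 0.0199 and 0.0319). Med1, the Mediator subunit that contacts receptors, fell by 0.49 and Ncoa6 by 0.42 (adjusted p = 0.0395 and 0.0488), the last 2 named after their values were seen. These 4 genes passed in 4, 2, 2 and 0 of the 8 fits without 1 array. Ep300, the close relative of Crebbp, had a change of -0.43 (adjusted p = 0.0870). Prmt1 passed in all 8 fits without 1 array and Pprc1 in 7 (0.0507 without normoosmotic replicate 3), but the number of the 28 that fell was 1 without normoosmotic replicate 3, 2 without normoosmotic replicate 4 or hypoosmotic replicate 2, and 3 without normoosmotic replicate 1 or 2 or hypoosmotic replicate 3. Of 9 further nuclear receptors measured, 4 were near background in the controls. Among the 9, 0 passed and 1 had an unadjusted p under 0.05, against 20.7% of all genes. This was the clock repressor Nr1d2 (REV-ERB beta), with a change of -0.57 ± 0.18 (adjusted p = 0.0801).

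**Figure D5:**
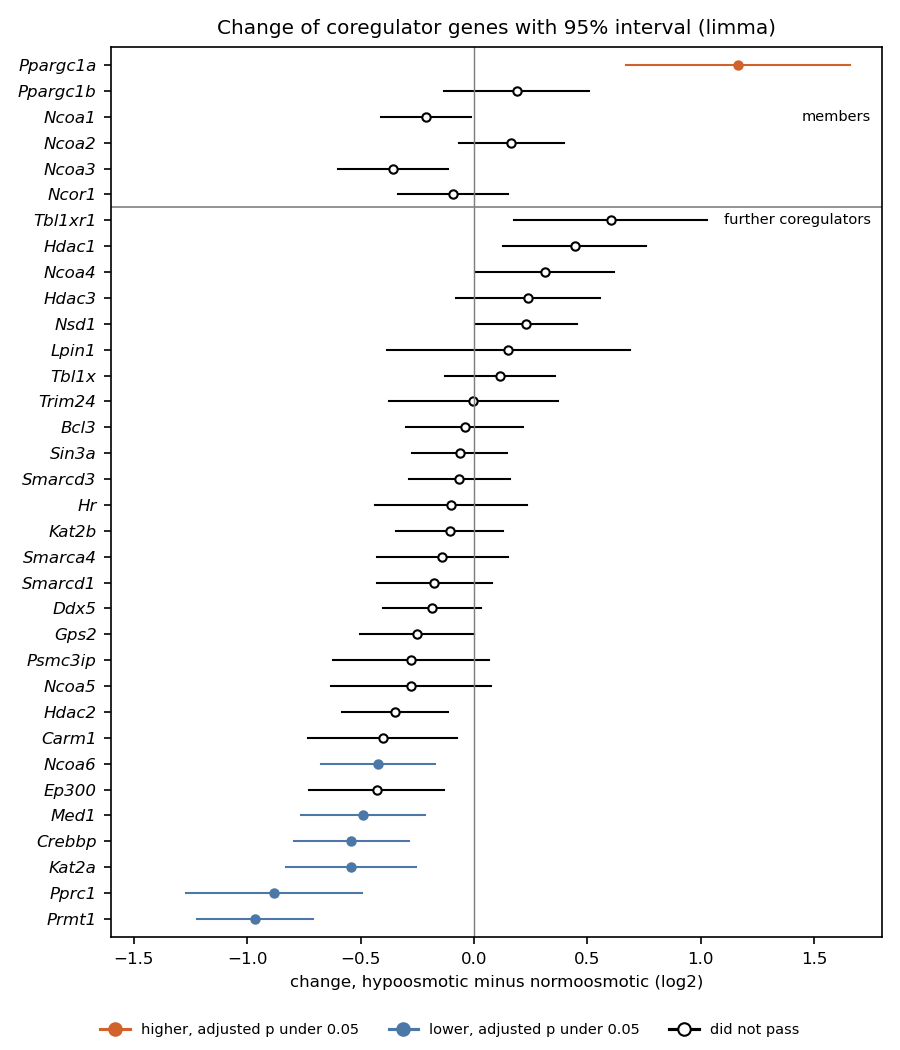
Log2 change (hypoosmotic minus normoosmotic, horizontal axis) with 95% limma interval for the 6 coregulators of the class (top) and 28 further coregulator genes (below, ordered by change). Ppargc1a is the single rise that passed, and the 6 filled points in the lower block are the falls.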

How the data were processed

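The authors deposited log2 expression values of 27596 probe sets for each of the 8 arrays. The submitters' processing notes name RMA, Affymetrix Expression Console and Transcriptome Analysis Console 4.0 without saying which did what. RMA makes the value distributions of arrays alike, which hides any shift common to most transcripts. The genome build behind the probe sets is not given in the sources used here, and their coordinates are left out. Scanner files, scan dates and detection calls were not used here.

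Through the 2016 platform annotation 15316 probe sets had 1 gene symbol, 317 several and 11963 none, and symbols were updated through a RefSeq gene table (GRCr8). The probe set with the highest mean stood for a gene. Groups and replicate numbers came from the sample titles. limma 3.58.1 in R 4.3.3 (lmFit, eBayes, group as the only term, both tails) was fitted to all 14511 genes, with Benjamini-Hochberg adjustment. Pairs were tested with scipy 1.17.1 (exact permutation). The fit was also run on simulated data. Their noise had the same spread on every array, so they do not represent an array that stands apart. Python 3.11.15 drew the plots.

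The members, lists and alternatives were chosen with earlier results of these data known. Each gene of the class was described. From each other list up to 4 genes that passed, or else the one with the smallest p, were named. Promoters are RefSeq sequences.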

Additional observations from a re-analysis of the deposited data

Results flagged for a closer look

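In 51 named genes each group of 4 arrays was examined for a value whose gap to the nearest other exceeded Dixon's 95% limit for 4 samples, and 4 of 102 groups had one, where chance gives about 1 in 20. Nr0b2 had 2 such arrays. Hypoosmotic replicate 3 was at 5.84 while the other hypoosmotic arrays were at 2.78 to 3.20, and normoosmotic replicate 1 was at 3.42 while the other controls were at 2.81 to 2.89, a range that lies near background. For Nr5a2, normoosmotic replicate 3 was at 7.63, below 7.95 to 8.01 in the other controls. Without that array the change of Nr5a2 was 0.51 (limma adjusted p = 0.0298). For Kat2a, hypoosmotic replicate 3 was at 4.71, below 5.05 to 5.11 on the other hypoosmotic arrays. The part of RNA quality or sample handling in these values was not tested.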

How the results depend on the processing

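Over all 14511 genes 1026 changed, 468 to 1051 when 1 array was left out, and 83 when a 1.2-fold minimum was built into the limma test. With that minimum 0 of the 36 genes rose and 0 fell. When 1 array was left out, 2 to 5 of them rose and 1 to 3 fell. In these fits 11.1% to 19.4% of the 36 genes changed, against 3.23% to 7.24% of all genes. The falls among the 36 were 4 after median centring and 4 without the dimmest genes (Rxrb and Thrb added), and 1 when all probe sets were tested (Nr3c2 lost). The intensity trend with robust variances and the mean of probe sets gave the 7 reported genes, array weights 6 (Rxrg lost) and a further quantile normalization 8 (Rxrb added). The receptor median was 0.06 to 0.20 and the coregulator median -0.02 to 0.09 when 1 array was left out.

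Some changes of genes that did not pass turned sign. That of Ppard was 0.018 after quantile normalization. With 1 array left out, the changes ranged from -0.11 to 0.095 for Ppard, from -0.090 to 0.067 for Rarg, from -0.24 to 0.018 for Esrrg, from -0.11 to 0.37 for Hnf4g and from -0.068 to 0.95 for Nr0b2, the last 2 lowest without hypoosmotic replicate 3. The shifts ranged from -0.066 to 0.086 for Nr2f1 minus Nr2f6 and from -0.030 to 0.52 for Hnf4a minus Hnf4g. The cause of these sign changes was not tested.

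Replicate numbers in the titles are shared by both groups, but same-numbered arrays had correlations of their deviations of 0.01, 0.26, 0.12 and 0.06 for replicates 1 to 4, and 3 of 4 normoosmotic arrays correlated best with their own number, a hint from the data and not the design. Whether the numbers pair the samples is not stated in the labels, and they were not treated as pairs. With the replicate block 7 of the 36 genes passed, 6 of them as reported, with 1 fall (Nr3c2 at adjusted p = 0.0508) and Esr1 added (0.0332), and 1029 genes changed. Without scanner files, signal over background is known only through the odorant receptor level, under which Vdr and Nr0b2 lay in the controls.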

Other observations

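Hypoosmotic replicate 3 was more than 1 log2 unit above all 7 other arrays in 8 of the 257 genes of the lists used here, while each of the other arrays was so in 0 or 1. These 8 genes were picked for standing apart on that array and were not tested. Pck1, the gluconeogenic phosphoenolpyruvate carboxykinase, was 10.66 on that array and 5.94 to 7.90 on the others. G6pc1, the catalytic unit of glucose-6-phosphatase, was 9.59 against 5.50 to 6.37. Fgf21, a fasting hormone of liver, was 7.89 against 4.93 to 5.71, and Alas1, the first enzyme of haem synthesis, was 8.18 against 5.62 to 6.26. Cyp7a1, the rate-limiting enzyme of bile acid synthesis, was 8.82 against 5.24 to 7.81. The orphan receptor gene Nr4a2 was 6.36 against 4.36 to 5.27 and the glucocorticoid-induced Tsc22d3 5.26 against 3.71 to 4.24. Nr0b2 was the one of the 36 genes in this set.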
